A study of Mus musculus with 28 samples.

Results

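The genes described here carry arachidonic acid to prostaglandins and leukotrienes and sense prostaglandin E2. They are 10 mouse genes taken from the literature of the pathway: the phospholipase Pla2g4a, the cyclooxygenases Ptgs1 and Ptgs2, the terminal synthases Ptges and Hpgds, the leukotriene genes Alox5, Alox5ap and Ltc4s, and the prostaglandin E2 receptors Ptger2 and Ptger4. Each was read from the array probe set that names that gene alone, and from the one with the highest mean where there were several. Such a probe set was found for 9 of the 10 genes, among 18193 genes in all. Ptgs1 had none and is not analysed here. The probe sets are 1448558_a_at (Pla2g4a), 1417262_at (Ptgs2), 1439747_at (Ptges), 1421492_at (Hpgds), 1441962_at (Alox5), 1452016_at (Alox5ap), 1419692_a_at (Ltc4s), 1449310_at (Ptger2) and 1424208_at (Ptger4).

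Prostaglandins and leukotrienes are short-range lipid signals made from arachidonic acid, which phospholipase A2 releases from membranes. The cyclooxygenases turn it into prostaglandin H2, from which terminal synthases make the single prostaglandins. In a parallel branch 5-lipoxygenase, fed by its activating protein, makes the leukotrienes. In lymphoid tissue prostaglandin E2 acts on myeloid cells and lymphocytes through receptors that raise cyclic AMP, and bacterial products are known to induce the second cyclooxygenase in macrophages.

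The study profiled spleens of mice fed a control diet or one supplemented with abscisic acid (ABA), a plant hormone, with or without a challenge of lipopolysaccharide (LPS), the endotoxin of Gram-negative bacteria. All mice carry floxed PPAR g alleles. Wild-type mice are MMTV-Cre- and the PPARg-null mice are MMTV-Cre+, so that the mammary tumour virus promoter drives the recombinase. The protocol counts 40 mice of each genotype. The labels place the deletion in the spleen in one field and in epithelial and immune cells in another, and speak both of splenocytes and of homogenised tissue. One experiment of 12 arrays held wild-type mice alone: 4 LPS arrays and 2 unchallenged arrays per diet. Another of 16 arrays held both genotypes, with 2 arrays in each of 8 groups of diet, LPS and genotype. They are called the 12-array and the 16-array experiment here, and arrays without LPS are called unchallenged. The age of the mice, the dose and time of LPS, and whether animals were pooled are not given in the sources used here. Nor do the labels say that arrays of a group came from separate mice, and p-values then reflect just the scatter among these samples, which may be technical.

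Values are the authors' log2 expression values, and the number of arrays limits their precision. Between 35.9% and 41.9% of an array's probe sets share 1 lowest value, 2.29 in the 12-array experiment and 2.24 in the 16-array experiment. Levels were compared only within an experiment. Pparg, the targeted gene, read 2.31 to 3.56 on wild-type and 2.45 to 3.31 on null arrays of the 16-array experiment, so its low probe set does not separate the genotypes, and its distance from the deleted part is not known here. Xist, transcribed in females, was high on 12 of 12 arrays of the 12-array experiment and on 6 of 16 of the other. The pancreas gene Cpa1 was high on 4 arrays. The mean of 10 B cell markers, which spleen should hold, ran from 8.64 to 9.63 on the unchallenged arrays of the 12-array experiment and from 8.73 to 10.2 on the wild-type ones of the other.

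Promoter sequences are shown for the cyclooxygenase seen above the lowest value only with LPS and for both prostaglandin E2 receptors, since these members passed for a rise with LPS or came near it. The 250 bases before the start of each gene are given 5′ to 3′ on its own strand, from RefSeq on GRCm38.p6. The Ptgs2 stretch lies at chr1:150099781-150100030 on the plus strand, the Ptger2 stretch at chr14:44987861-44988110 on the plus strand, and the Ptger4 stretch at chr15:5244188-5244437 on the minus strand. Capitals mark the 1 motif match in them.
Ptgs2: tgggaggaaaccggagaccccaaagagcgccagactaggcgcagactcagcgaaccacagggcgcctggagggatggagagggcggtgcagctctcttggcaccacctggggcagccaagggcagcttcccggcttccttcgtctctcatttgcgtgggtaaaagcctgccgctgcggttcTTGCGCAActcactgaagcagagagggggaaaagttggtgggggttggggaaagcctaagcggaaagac
Ptger2: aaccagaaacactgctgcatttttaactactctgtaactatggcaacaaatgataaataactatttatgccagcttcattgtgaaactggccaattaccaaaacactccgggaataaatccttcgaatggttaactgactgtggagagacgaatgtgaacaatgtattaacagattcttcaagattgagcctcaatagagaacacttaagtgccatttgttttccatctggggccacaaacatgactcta
Ptger4: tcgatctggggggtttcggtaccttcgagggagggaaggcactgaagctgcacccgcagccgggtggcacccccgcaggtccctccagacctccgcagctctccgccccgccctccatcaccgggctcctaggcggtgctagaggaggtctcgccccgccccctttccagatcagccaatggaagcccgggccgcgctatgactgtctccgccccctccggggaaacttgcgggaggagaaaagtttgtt

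Of 6 motifs searched on both strands, the only match in these stretches was TTGCGCAA of the C/EBP-type motif TTGCNNAA in the Ptgs2 promoter, at positions -69 to -62 from the start. Of 32851 promoters of the same length, 9.56% hold that motif. The kappaB-type GGGNNTTCC (4.98% of promoters), the CRE core TGACGT (6.47%), the E-box CACGTG (6.02%), the GAS-type TTCNNNGAA (7.02%) and TATAAA (12.4%) were not found in these 3 windows. A match is a string of letters, not a tested binding site.

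LPS was compared with no LPS on each diet in the 20 wild-type arrays of both experiments, with limma and Benjamini-Hochberg adjustment over 13458 genes. Of the 9 measured members 7 passed the filter on low values there, Alox5 and Ltc4s being left out. Ptger4 was the 1 member of 7 that rose on the control diet, where 18.1% of all genes tested changed and 10.6% rose. It was also the 1 of 7 that rose on the ABA diet, where 15.3% changed and 8.93% rose. A share of 1 in 7 is near the background, so the count by itself is no result about the members. The median change of the 7 was 0.47 log2 units with the control diet and 0.25 with ABA, and that of all genes tested was -0.000804 and 0.000678.

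**Figure D1:**
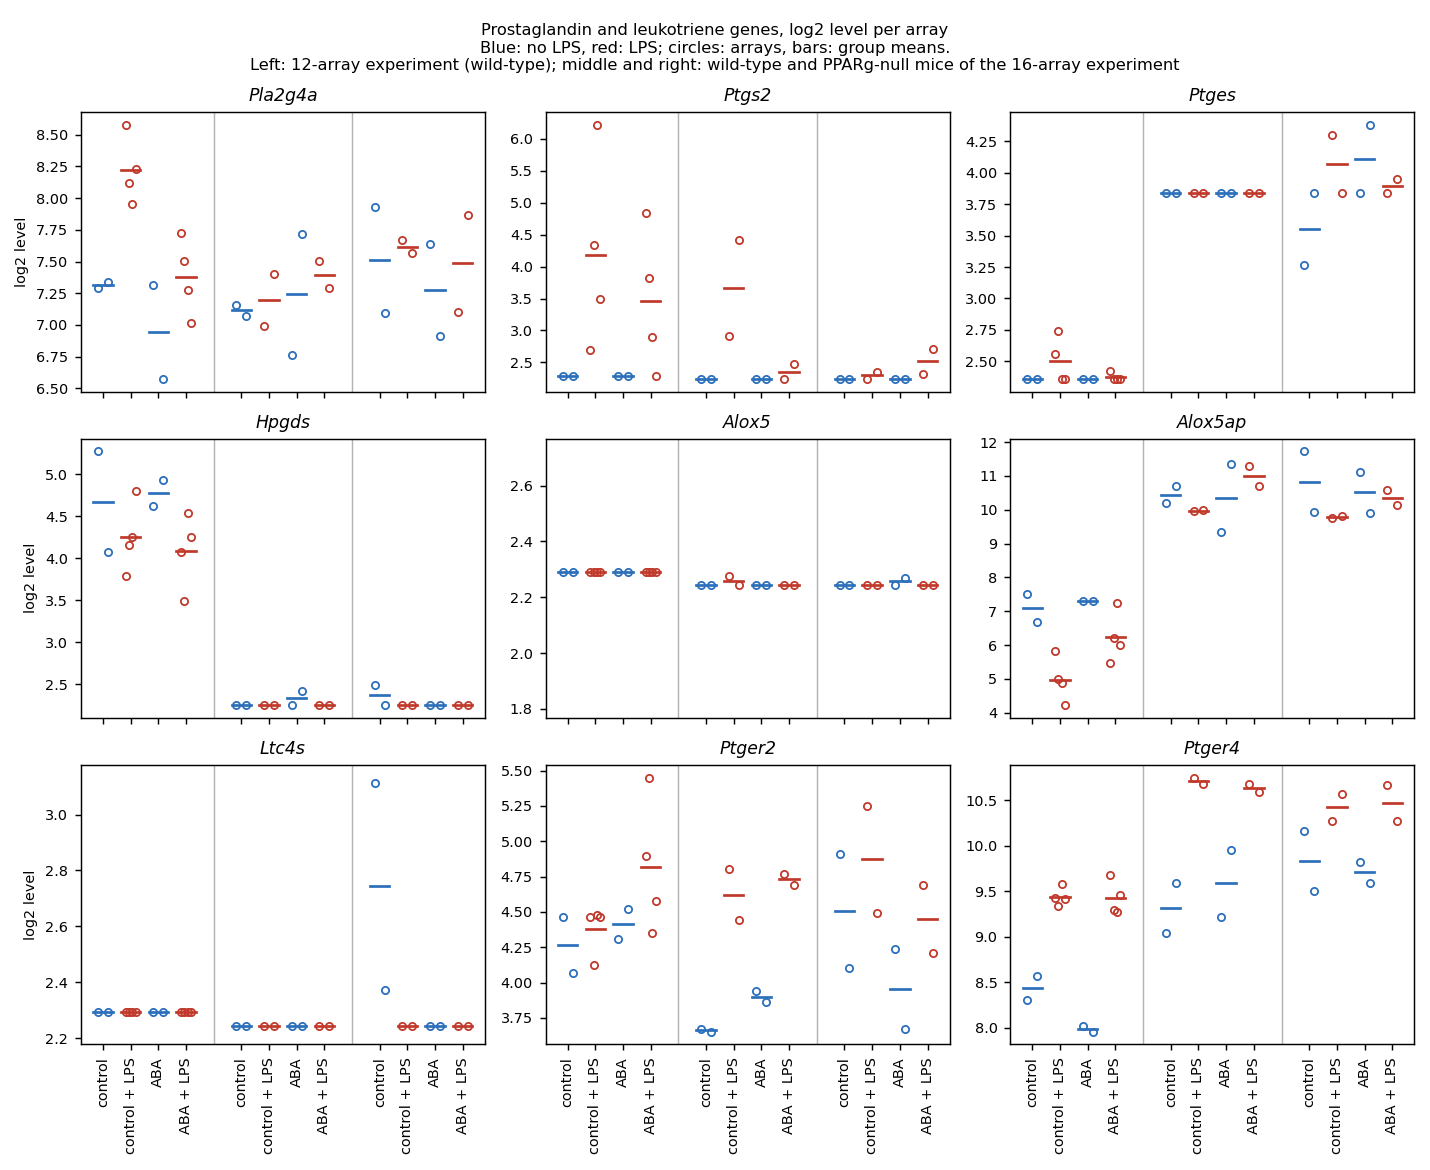
Log2 level of the 9 measured members on each of the 28 arrays, with array circles and group means as bars, blue without and red with LPS. The left block of each panel is the 12-array experiment, the middle and right blocks are wild-type and PPARg-null mice of the 16-array experiment. Ptger4 is higher in every LPS group than in its group without LPS, Ptgs2 leaves the lowest value only with LPS, and Alox5 stays at it in the 12-array experiment and between 2.24 and 2.27 in the other.

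Pla2g4a encodes the cytosolic phospholipase A2 that starts the pathway. In the 12-array experiment it read 7.29 and 7.34 on unchallenged control diet arrays and 8.58, 8.12, 7.95 and 8.23 with LPS. Its ABA diet values were 7.31 and 6.58 unchallenged and 7.72, 7.50, 7.28 and 7.02 with LPS. The control diet groups did not overlap, whereas those of the ABA diet did.

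In the 16-array experiment all 16 arrays lay between 6.76 and 7.93, and arrays with and without LPS overlapped in both genotypes. Over both experiments the LPS change was 0.62 ± 0.26 log2 units (SE) on the control diet (limma, adjusted p = 0.111) and 0.25 ± 0.26 on the ABA diet (adjusted p = 0.574). Neither passed. The control diet change was 0.91 (adjusted p = 0.0468) within the 12-array experiment and 0.08 (adjusted p = 0.994) within the other. With a term for high Xist it was 0.98 (adjusted p = 0.0121), and without the first control diet LPS array of the 16-array experiment 0.81 (adjusted p = 0.0364).

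Ptgs2 encodes cyclooxygenase 2, the inducible enzyme of prostaglandin synthesis. Its probe set sat at the lowest value on all arrays without LPS, 4 in the 12-array experiment and 8 in the other. With LPS the 12-array experiment gave 2.69, 4.33, 6.22 and 3.50 with the control diet and 4.85, 3.82, 2.90 and 2.29 with ABA. Of these 8 arrays 6 lay more than 0.5 log2 units above the lowest value, and the 8 ran from 2.29 to 6.22.

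In the 16-array experiment Ptgs2 with LPS read 2.91 and 4.42 in wild-type mice with the control diet and 2.24 and 2.47 with ABA. In null mice it read 2.24 and 2.35 with the control diet and 2.32 and 2.71 with ABA. Thus 2 of 4 wild-type and 0 of 4 null arrays with LPS lay more than 0.5 above the lowest value. With diets averaged, the wild-type change there was 0.77 ± 0.27 (limma, adjusted p = 0.0920). Without the first control diet LPS array it was 1.15, and 1 array, at 4.42, was left in that group.

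The wild-type LPS change of Ptgs2 was 1.66 ± 0.58 on the control diet (limma, adjusted p = 0.0591) and 0.75 ± 0.58 on the ABA diet (adjusted p = 0.423). Neither passed, and no fold is given because the side without LPS is at the lowest value. In 1 fit of all 28 arrays the control diet change passed (adjusted p = 0.0426). It also passed without the first control diet LPS array (1.95) or the first ABA diet LPS array (1.69) of the 12-array experiment, with adjusted p = 0.0244 and 0.0384. A second Ptgs2 probe set stayed between 2.24 and 2.32 on all arrays.

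Ptges encodes the inducible microsomal prostaglandin E synthase and Hpgds the synthase that makes prostaglandin D2 in mast cells and antigen-presenting cells. Both read near the lowest value or repeated 1 value in at least 1 experiment. Of the other Ptges probe sets, 1449450_at ran from 2.25 to 2.89 and 1449449_at held the lowest value on all arrays. The Ptges probe set used here held 2.36 on 9 of 12 arrays of the 12-array experiment, with a highest value of 2.74. It held 3.84 on 10 of 16 arrays of the other, in a range of 3.27 to 4.38. Its LPS change was 0.09 ± 0.06 with the control diet and 0.00 ± 0.06 with ABA (limma, adjusted p = 0.329 and 1).

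Hpgds ran from 3.49 to 5.27 in the 12-array experiment, and held 2.25 on 14 of 16 arrays of the other. In the former its 4 arrays without LPS read 4.07, 4.62, 4.93 and 5.27, and its 8 with LPS had a lowest value of 3.49, a median of 4.20 and a highest of 4.80. The groups overlapped on the control diet and did not on the ABA diet. The LPS change was -0.23 ± 0.24 with the control diet and -0.44 ± 0.24 with ABA (limma, adjusted p = 0.569 and 0.252). Of 11 mast cell and basophil markers, Mcpt8, Ms4a2, Fcer1a, Tpsb2, Tpsab1 and Mcpt4 stayed within 0.5 of the lowest value on all arrays. Hdc, the histidine decarboxylase that makes histamine, was the only marker of the list that passed with LPS on either diet. It rose by 2.34 ± 0.31 on the control diet (adjusted p = 6.30e-05) and by 2.78 ± 0.31 on the ABA diet (adjusted p = 1.17e-05). It also rose in the 16-array experiment, by 3.05 in wild-type and 1.62 in null mice, and Gata2 rose there in wild-type mice by 1.91. The mean level of that list, which includes Hdc, was 3.41 to 3.43 without and 3.53 to 3.77 with LPS in the 12-array experiment. The part of these cells in the Hpgds values was not tested.

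Alox5 encodes 5-lipoxygenase, the enzyme that opens leukotriene synthesis. Its probe set held the lowest value on 12 of 12 arrays of the 12-array experiment, and ran from 2.24 to 2.27 in the other. These values give no measure of Alox5 in any condition. Ltc4s, which joins glutathione to leukotriene A4, held the lowest value on 12 of 12 and 14 of 16 arrays. The 2 others were both null control diet arrays without LPS, at 3.11 and 2.37, and no change of Ltc4s passed in the comparisons as fitted.

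Alox5ap encodes the protein that presents arachidonic acid to 5-lipoxygenase. In the 12-array experiment it read 7.50 and 6.70 on unchallenged control diet arrays and 5.82, 4.99, 4.87 and 4.22 with LPS. Feeding ABA gave 7.31 and 7.30 unchallenged and 5.47, 6.21, 7.26 and 6.01 with LPS. All 8 arrays with LPS lay below those of the same diet without LPS, though the ABA diet array at 7.26 only just did. The group means ran from 4.98 ± 0.65 on the control diet with LPS and 6.24 ± 0.75 on the ABA diet with LPS (SD, n = 4 each) to 7.10 ± 0.57 and 7.30 ± 0.01 (n = 2 each) without LPS, and all neighbours in that order overlapped in their spread.

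In the 16-array experiment Alox5ap in wild-type mice read 10.19 and 10.69 on unchallenged control diet arrays and 9.96 and 9.98 with LPS. Arrays of the ABA diet gave 9.36 and 11.35 unchallenged and 11.30 and 10.69 with LPS. In null mice it read 11.73 and 9.94 on unchallenged control diet arrays and 9.75 and 9.81 with LPS, and on the ABA diet 11.12 and 9.91 unchallenged and 10.58 and 10.13 with LPS. The 4 pairs of groups overlapped on the ABA diet of both genotypes and not on the control diet. With 2 arrays in each group, a lack of overlap is weak information.

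The LPS change of Alox5ap in wild-type mice was -1.44 ± 0.49 log2 units on the control diet (limma, adjusted p = 0.0522), just outside the threshold, and -0.31 ± 0.49 on the ABA diet (adjusted p = 0.741). The control diet value was -2.13 (adjusted p = 0.0299) within the 12-array experiment and -0.47 (adjusted p = 0.791) within the other. It passed with quantile normalisation (-1.57, adjusted p = 0.0298) and without any 1 of 4 arrays. These were the first LPS arrays of either diet in the 12-array experiment and the first ABA diet arrays with and without LPS in the other. With the mean of all probe sets the adjusted p was 0.0498. Alox5ap has 1 probe set that names it alone, so its change stayed at -1.44 and that alternative does not test it. The control diet value was -1.09 (adjusted p = 0.221) without the arrays with high Cpa1.

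A comparison of the experiments was added after seeing the data. With diets averaged, Alox5ap fell by 1.60 ± 0.40 log2 units in the 12-array experiment (limma, adjusted p = 0.0135), where 20.5% of genes changed. In wild-type mice of the 16-array experiment the value was 0.09 ± 0.47 (adjusted p = 0.992), where 26.3% changed. The difference of -1.68 ± 0.62 did not pass (adjusted p = 0.160), while 4.92% of all genes did. Pla2g4a likewise rose in the former (0.67 ± 0.20, adjusted p = 0.0284) and read 0.12 ± 0.23 in the latter (adjusted p = 0.798), with a difference that did not pass (adjusted p = 0.370). Ptger2 went the other way, at 0.26 ± 0.17 in the former (adjusted p = 0.344) and 0.90 ± 0.19 in the latter (adjusted p = 0.00434), and its difference of -0.63 ± 0.26 did not pass either (adjusted p = 0.206).

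Markers of myeloid cells are given beside these values. Of 12 red pulp macrophage markers 6 fell on each diet, beside 7.5% (control) and 6.33% (ABA) of all genes. The list had a mean level of 9.14 to 9.87 without and 7.34 to 8.17 with LPS in the 12-array experiment. In wild-type mice of the other it was 10.8 to 12.2 and 8.99 to 10.4. The neutrophil list, 11 genes, read 6.30 to 7.67 without and 6.26 to 7.74 with LPS in the former, and 7.17 to 8.49 and 9.44 to 10.7 in the latter. None of the 12 macrophage markers stayed at the lowest value on all arrays of an experiment. In bulk spleen, fewer cells of a type and less RNA per cell cannot be told apart, and the part of these cells in the Alox5ap values was not tested.

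**Figure D2:**
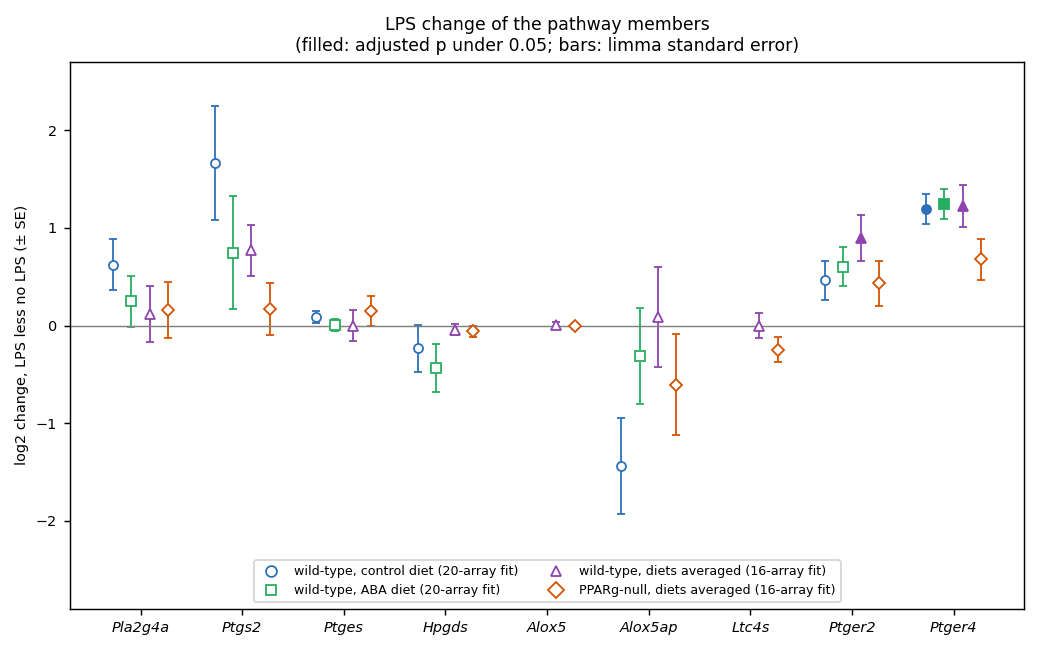
Log2 change with LPS (y axis, SE bars from limma) of the 9 measured members in 4 comparisons, with filled symbols past the threshold. Ptger4 is filled in all 3 wild-type comparisons and Ptger2 in that of the 16-array experiment, while the Alox5ap change runs from -1.44 on the control diet to 0.09.

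Ptger2 and Ptger4 encode the EP2 and EP4 receptors, both of which couple prostaglandin E2 to cyclic AMP. Ptger4 in the 12-array experiment read 8.30 and 8.57 on unchallenged control diet arrays and 9.42, 9.34, 9.58 and 9.41 with LPS. Its ABA diet values were 8.02 and 7.96 unchallenged and 9.68, 9.30, 9.27 and 9.46 with LPS. All 8 arrays with LPS lay above all 4 without.

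In the 16-array experiment Ptger4 in wild-type mice read 9.05 and 9.59 on unchallenged control diet arrays and 10.75 and 10.68 with LPS. Feeding ABA gave 9.22 and 9.96 unchallenged and 10.68 and 10.59 with LPS. In null mice it read 10.16 and 9.50 on unchallenged control diet arrays and 10.28 and 10.57 with LPS, and on the ABA diet 9.82 and 9.59 unchallenged and 10.67 and 10.27 with LPS. No group with LPS overlapped its group without.

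Ptger4 rose with LPS in wild-type mice by 1.19 ± 0.15 log2 units on the control diet, a 2.29-fold higher level (limma, adjusted p = 5.03e-05). On the ABA diet it rose by 1.25 ± 0.15, or 2.37-fold (adjusted p = 3.69e-05). Leaving out any 1 array kept both calls, at 1.04 to 1.31 and 1.17 to 1.43. The change was 1.00 and 1.44 within the 12-array experiment, both called. The 8 wild-type arrays of the 16-array experiment alone gave 1.40 and 1.05, neither called (adjusted p = 0.0938 and 0.231). A second Ptger4 probe set also rose, by 1.33 ± 0.20 and 1.14 ± 0.20 (adjusted p = 0.000422 and 0.00190). Monocyte markers rose with LPS in 2 of 8 genes on each diet, and the list's mean was 4.14 to 4.69 unchallenged and 4.84 to 5.74 with LPS in the 12-array experiment. Neutrophil markers rose in 2 of 11 genes on the control diet (10.6% of all genes) and 4 of 11 on the ABA diet (8.93%). Their part in the Ptger4 change was not tested.

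The group means of Ptger4 ran in the 12-array experiment from 7.99 ± 0.04 (SD, n = 2) on the ABA diet and 8.44 ± 0.18 (n = 2) on the control diet, both without LPS, to 9.43 ± 0.19 and 9.44 ± 0.10 (n = 4 each) with LPS. The LPS means did not differ beyond their spread, and the others did. The gap between the diets without LPS rests on 2 arrays each. Its order was reversed in wild-type mice of the 16-array experiment, at 9.59 with ABA and 9.32 with the control diet. Fitted over both experiments, that diet difference was -0.09 ± 0.17 log2 units, not called. In the 16-array experiment the 4 means without LPS, 9.32 to 9.83, lay below the 4 with LPS, 10.42 to 10.71, and neighbours within each set of 4 overlapped in their spread. With LPS the lowest SD was 0.05 and the highest 0.29.

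Ptger2 in the 12-array experiment read 4.46 and 4.07 on unchallenged control diet arrays and 4.46, 4.12, 4.48 and 4.46 with LPS. Arrays of the ABA diet gave 4.30 and 4.52 unchallenged and 4.89, 5.45, 4.35 and 4.58 with LPS. Groups with and without LPS overlapped on both diets.

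In wild-type mice of the 16-array experiment Ptger2 read 3.67 and 3.65 on unchallenged control diet arrays and 4.80 and 4.44 with LPS. With ABA these values were 3.94 and 3.86 unchallenged and 4.77 and 4.69 with LPS, so neither diet overlapped. In null mice the 4 arrays without LPS ran from 3.67 to 4.91 and the 4 with LPS from 4.21 to 5.25, and they overlapped.

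Over both experiments the wild-type LPS change of Ptger2 was 0.47 ± 0.20 on the control diet (limma, adjusted p = 0.121) and 0.60 ± 0.20 on the ABA diet (adjusted p = 0.0538), neither called. Within the 16-array experiment alone the control diet change was 0.96, past the threshold (adjusted p = 0.0377). The ABA diet change passed with median centring (0.62, adjusted p = 0.0454) and with a term for high Xist (0.66, adjusted p = 0.0390). It also passed without any 1 of 5 arrays. Of the 12-array experiment these were ABA diet LPS arrays 3 and 4, the second ABA diet array without LPS and the first control diet array without LPS, and of the other the first wild-type control diet LPS array. Without the arrays with high Cpa1 both diets passed, at 0.69 and 0.60.

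Genotypes were compared in the 16 arrays of the 16-array experiment, in a fit of 13377 genes in which 9 members were tested. Alox5, Hpgds and Ltc4s each held 1 value on 14 of these 16 arrays, and Ptges on 10. Counts out of 9 thus say little about these members. With diets averaged, Ptger4 rose with LPS in wild-type mice by 1.22 ± 0.21 log2 units (limma, adjusted p = 0.00718) and Ptger2 by 0.90 ± 0.23, a 1.86-fold higher level (adjusted p = 0.0353). These were 2 of 9 members, where 14% of all genes tested changed and 8.55% rose. The Ptger2 call was lost when any 1 of the 8 wild-type arrays was left out (0.80 to 0.99) and with no filter on low values (adjusted p = 0.0607). Xist was low on both wild-type control diet arrays without LPS and high on both with LPS, and with a term for it Ptger4 was at 1.29 (adjusted p = 0.00791) and Ptger2 at 1.00 (adjusted p = 0.0177). The second Ptger4 probe set gave 0.93 ± 0.21 in wild-type mice (adjusted p = 0.0266) and 0.49 ± 0.21 in null mice (adjusted p = 0.261). In the same comparison 8 of 11 neutrophil and 4 of 8 monocyte markers rose, and their part in the receptor changes was not tested.

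In null mice 0 of 9 members passed for LPS, where 7.4% of all genes changed and 2970 had an unadjusted p under 0.05. Ptger4 came nearest, at 0.68 ± 0.21 (limma, adjusted p = 0.0937), a 1.60-fold higher level without overlap between the 4 arrays with and the 4 without LPS. That change passed with quantile normalisation (adjusted p = 0.0367) and in 1 fit of all 28 arrays (adjusted p = 0.0120). Without the arrays with high Cpa1, of which 2 are null arrays without LPS, it was 0.45 (adjusted p = 0.316). The other values in null mice were 0.43 ± 0.23 for Ptger2, 0.17 ± 0.27 for Ptgs2, 0.16 ± 0.29 for Pla2g4a and -0.61 ± 0.51 for Alox5ap.

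The LPS changes of the genotypes were then set against each other, and 0 of 9 members differed, against 0.0299% of all genes (597 at an unadjusted p under 0.05). The difference, null less wild-type, was -0.54 ± 0.30 for Ptger4, with a 95% interval of -1.23 to 0.14 (limma, adjusted p = 0.943). It was -0.60 ± 0.38 for Ptgs2 (-1.45 to 0.25) and -0.46 ± 0.33 for Ptger2 (-1.21 to 0.28). These intervals leave room for no difference and for a lower response in null mice, down to -1.45 log2 units for Ptgs2. They also leave room for a higher one, up to 0.28 for Ptger2. All Ptgs2 arrays without LPS were at the lowest value.

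Between null and wild-type mice with LPS 0 of 9 members differed (0.0299% of genes), and without LPS 0 of 9 (0.00748% of genes). With LPS Ptgs2 was 0.60 ± 0.27 log2 units lower in null mice (limma, adjusted p = 1) and Ptger4 0.23 ± 0.21 lower. Without the first wild-type control diet LPS array the Ptgs2 value was -0.98, and 1 array, at 4.42, was left in that group. At an unadjusted p under 0.05 the comparisons gave 604 genes with and 283 without LPS.

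The same fit gave a call to Ltc4s in 4 comparisons once null control diet replicate 2 without LPS was left out, alone or with the other arrays of high Cpa1. Its change, 0.44 log2 units in size, then rests on the 1 null array at 3.11, since nearly all others repeat the lowest value.

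Diets were compared with LPS in the 20 wild-type arrays. None of the 7 members tested changed (0 of 7), where 0.0149% of all genes did and 684 had an unadjusted p under 0.05. Alox5ap was 1.18 ± 0.43 log2 units higher on the ABA diet (limma, adjusted p = 0.919), with a 95% interval of 0.26 to 2.10. Its arrays overlapped in the 12-array experiment (4.22 to 5.82 against 5.47 to 7.26) and did not in the other (9.96 and 9.98 against 11.30 and 10.69). Pla2g4a was 0.50 ± 0.23 lower (adjusted p = 0.948), without overlap in the 12-array experiment and with overlap in the other. Ptgs2 was 0.92 ± 0.52 lower (adjusted p = 0.948) with overlap in the 12-array experiment and none in the other. With LPS, wild-type arrays of that other experiment read Xist at 12.46 and 12.17 (control diet) and at 2.25 and 2.25 (ABA). Diet there cannot be told apart from Xist level, for Ptgs2 and Alox5ap alike. Ptger4 differed by -0.04 ± 0.14, with an interval of -0.32 to 0.25.

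Without LPS 0 of 7 members differed between the diets (0.00743% of genes, 788 with an unadjusted p under 0.05). Their values ran from -0.12 ± 0.28 for Pla2g4a to 0.19 ± 0.22 for Ptger2. For the test of whether the LPS change differs between diets, 0 of 7 members and 0% of genes passed, with 561 genes at an unadjusted p under 0.05. The largest values there were 1.13 ± 0.69 for Alox5ap and -0.92 ± 0.82 for Ptgs2 (limma, adjusted p = 0.956 each). In null mice, with LPS averaged, 0 of 9 members and 0% of genes differed between the diets, and 419 genes had an unadjusted p under 0.05. Ptger2 was lower on the ABA diet by 0.49 ± 0.23 (adjusted p = 1).

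Of the other genes of the pathway, 38 were tested in the wild-type arrays of both experiments. Of these 2 rose and 12 fell with LPS in wild-type mice on the control diet, where 10.6% of all genes rose and 7.5% fell. Their median change was -0.07, beside -0.000804 for all genes. The ABA diet had 2 that rose and 5 that fell of 38 (8.93% and 6.33% of all genes). Wild-type mice of the 16-array experiment had 3 that rose and 6 that fell of 40 (8.55% and 5.49%), and null mice 1 and 3 of 40 (3.95% and 3.45%). In the comparisons of diets and genotypes 0 passed as fitted. Within the 12-array experiment alone, Hpgd with LPS was lower on the ABA diet (-1.06, limma, adjusted p = 0.0253), without overlap. That fit called 13 genes for this comparison. Wild-type Hpgd means with LPS in the 16-array experiment went the other way, at 7.32 with ABA and 7.03 without it. In null mice they were 7.39 and 7.34, and arrays of the diets overlapped in each genotype. In the fit of both experiments the wild-type Hpgd value was -0.61 (adjusted p = 0.944).

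**Figure D3:**
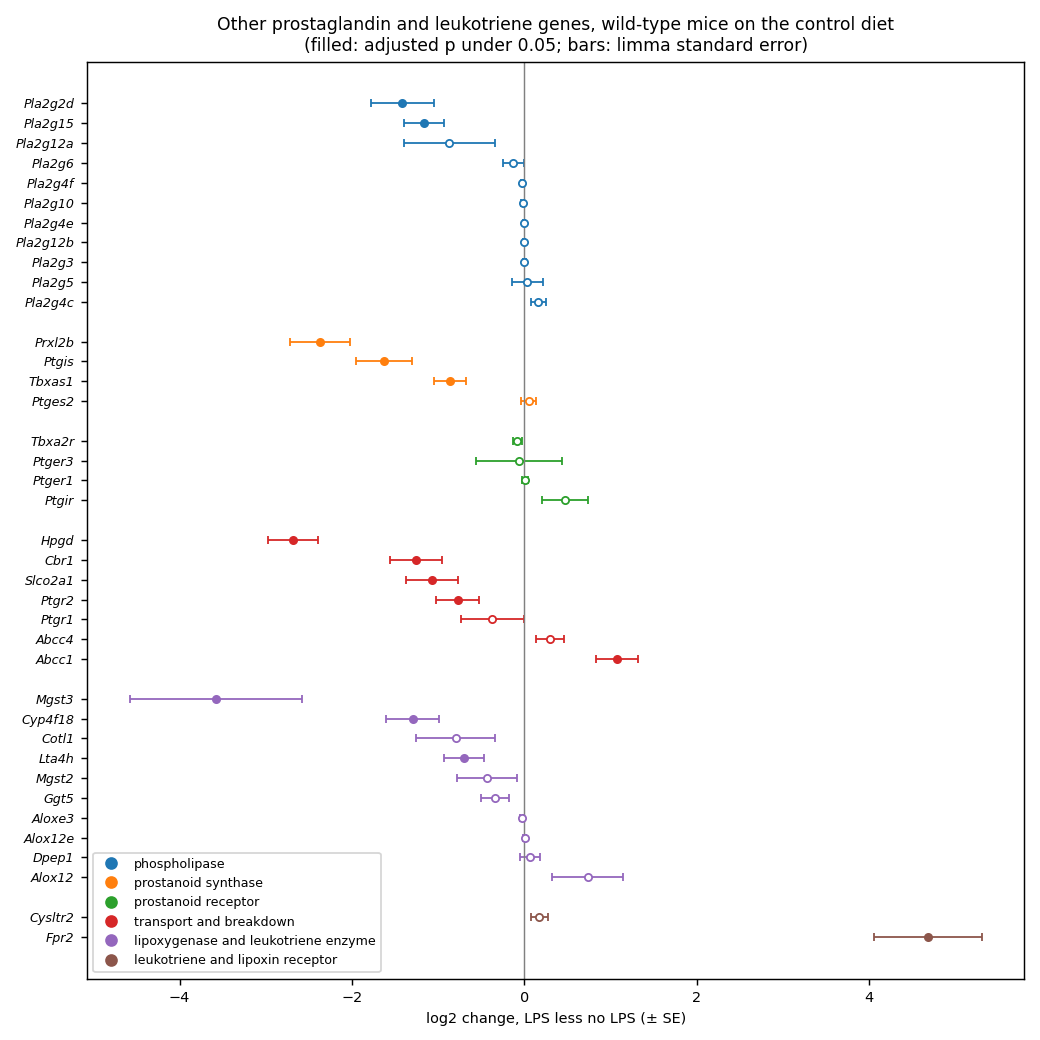
Log2 change with LPS in wild-type mice on the control diet (x axis, SE bars from limma) of the 38 other pathway genes tested, coloured by role, with filled symbols past the threshold. Fpr2 and Abcc1 lie to the right at 4.68 and 1.07, and 12 filled genes lie to the left of 0.

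Among the phospholipases 0 of 11 rose and 2 fell on the control diet, beside 10.6% and 7.5% of all genes. Pla2g15, a lysosomal phospholipase A2, fell by 1.16 ± 0.23 (limma, adjusted p = 0.00224). Pla2g2d, a secreted form of lymphoid tissue, fell by 1.41 ± 0.37 (adjusted p = 0.0136). The Pla2g2d call was lost without the second control diet array without LPS of the 12-array experiment (-1.08), and its value was -0.42 within the 16-array experiment. Without the high Cpa1 arrays it was -1.37 (adjusted p = 0.0583).

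Of 4 other prostanoid synthases 3 fell on the control diet, beside 7.5% of all genes. Prxl2b, which makes prostaglandin F2 from prostaglandin H2, read 5.96 and 5.49 on unchallenged control diet arrays and 3.22, 3.33, 3.05 and 3.11 with LPS in the 12-array experiment, without overlap. It fell by 2.37 ± 0.35, to a 5.18-fold lower level (limma, adjusted p = 0.000199). On the ABA diet Prxl2b fell by 2.25 ± 0.35 (within the 16-array experiment -1.36, adjusted p = 0.401), and in null mice it fell by 1.85 ± 0.36. The null call was lost without the high Cpa1 arrays (adjusted p = 0.0531) and in 3 of 16 leave-one-out fits (-2.00 to -1.70). These left out the first ABA diet array with LPS, the first without, or the second control diet LPS array of null mice. Ptgis, the prostacyclin synthase, fell by 1.63 ± 0.32 on the control diet (adjusted p = 0.00237), and Tbxas1, the thromboxane synthase, by 0.86 ± 0.19 (adjusted p = 0.00489). Ptgis read 2.30 to 2.64 on the 8 LPS arrays of the 12-array experiment, within 0.5 of the lowest value. Its control diet change was -1.92 within the 16-array experiment alone, not called (adjusted p = 0.249), and it passed in no other LPS comparison as fitted.

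Of 4 other prostanoid receptors 0 passed on the control diet, where 18.1% of all genes did. Ptgir, the prostacyclin receptor, rose by 0.90 ± 0.25 in wild-type mice of the 16-array experiment (limma, adjusted p = 0.0431). That call was lost in 9 of 16 leave-one-out fits (0.71 to 1.08), with no filter (adjusted p = 0.0733), with the replicate block (0.0514) and without high Cpa1 arrays (0.0622). Ptger1, Ptgfr, Ptgdr and Ptgdr2 stayed within 0.5 of the lowest value on all arrays.

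Among 7 genes of transport and breakdown 1 rose and 4 fell on the control diet, beside 10.6% and 7.5% of all genes. Hpgd, the dehydrogenase that inactivates prostaglandin E2, read 7.71 and 7.92 unchallenged and 5.42, 5.22, 5.34 and 5.30 with LPS on the control diet of the 12-array experiment. On its ABA diet Hpgd read 7.30 and 7.46 without and 4.35, 4.54, 3.98 and 4.18 with LPS. In the 16-array experiment it read 9.73 to 11.48 over the 8 arrays without LPS and 6.66 to 7.97 over the 8 with LPS. No array with LPS reached one without in the same experiment.

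Hpgd fell by 2.68 ± 0.29 on the control diet, to a 6.42-fold lower level (limma, adjusted p = 9.43e-06), by 3.10 ± 0.29 on the ABA diet and by 3.36 ± 0.39 in null mice (adjusted p = 0.00138). Every fit that left out 1 array kept these calls, while the 2 control diet arrays with and 2 without LPS of the 16-array experiment alone gave -3.12, not called (adjusted p = 0.0698). Abcc1, an exporter of leukotriene C4, rose by 1.07 ± 0.24 on the control diet (adjusted p = 0.00554) and by 1.62 ± 0.24 on the ABA diet (adjusted p = 0.000255). The control diet rise of Abcc1 was 1.05 within each experiment alone, called in neither (adjusted p = 0.0884 and 0.198). Cbr1, a carbonyl reductase that acts on prostaglandins, read 2.32 to 2.45 on the 8 LPS arrays of the 12-array experiment, within 0.5 of the lowest value. It fell by 1.26 ± 0.30 on the control diet and by 1.35 ± 0.25 in null mice. Without the high Cpa1 arrays both calls were lost (-1.15 and -1.23, adjusted p = 0.0526 and 0.0648), and the null call also without the first ABA diet LPS array (adjusted p = 0.0507). Slco2a1, a prostaglandin importer, fell by 1.07 ± 0.30 on the control diet (adjusted p = 0.0215). The Slco2a1 call was lost without the first unchallenged control diet array of the 12-array experiment (adjusted p = 0.0819), with the replicate block (0.0534), with the Xist term (0.0787), without high Cpa1 arrays (-0.83, adjusted p = 0.124) and within the 16-array experiment (-0.55, adjusted p = 0.450). Ptgr2, a prostaglandin reductase, fell on the ABA diet by 0.78 ± 0.24 (adjusted p = 0.0401), a call lost in 9 of 20 leave-one-out fits (-0.90 to -0.69). Ptgr2 also fell on the control diet, by 0.78, and in wild-type mice of the 16-array experiment, by 0.80. Its control diet call was lost with no filter (adjusted p = 0.0554), with the Xist term (0.107), without high Cpa1 arrays (0.118) and within either experiment alone.

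**Figure D4:**
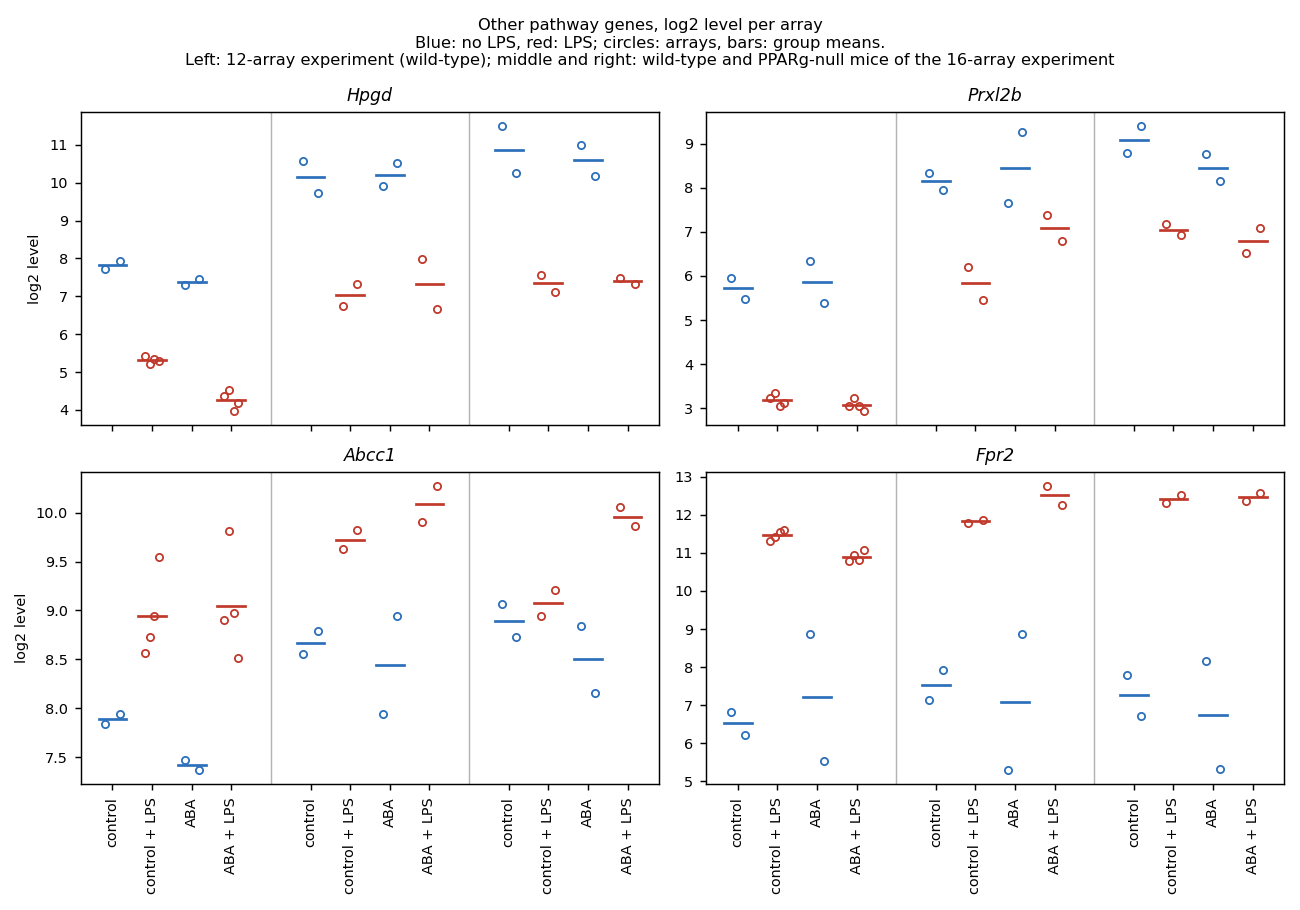
Log2 level of Hpgd, Prxl2b, Abcc1 and Fpr2 on each of the 28 arrays, laid out as in the plot of the members, with arrays as circles and group means as bars. Arrays with LPS (red) lie below those without for Hpgd and above them for Fpr2 in both experiments and genotypes.

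Among 10 other leukotriene and lipoxygenase genes 3 fell on the control diet, beside 7.5% of all genes. Cyp4f18, which oxidises leukotriene B4, fell by 1.30 ± 0.31 (limma, adjusted p = 0.00835), a call lost with a term for high Xist (-0.92, adjusted p = 0.0538). In the 12-array experiment 3 of its 8 LPS arrays lay more than 0.5 above the lowest value. Lta4h, which makes leukotriene B4, was lower by 0.70 ± 0.24 (adjusted p = 0.0490), a call lost in 16 of 20 leave-one-out fits. Mgst3, a glutathione transferase of membranes, fell by 3.58 ± 1.00 (adjusted p = 0.0209) and on the ABA diet by 3.18 ± 1.00 (adjusted p = 0.0417). In the 12-array experiment 1 of its 8 LPS arrays lay more than 0.5 above the lowest value. Its calls were lost in 4 and 14 of 20 leave-one-out fits (-4.58 to -2.85 and -4.33 to -2.47). The control diet value of Mgst3 was -1.80 within the 12-array and -6.08 within the 16-array experiment, called in neither. Its calls were also lost with the Xist term (adjusted p = 0.0767 and 0.0501) and without high Cpa1 arrays (0.0721 and 0.0672), and that of the ABA diet with the replicate block (0.0510). Erythroid markers fell in the same comparison, 6 of 10 on the control diet, beside 7.5% of all genes. Their list mean was 5.89 to 10.1 without and 4.60 to 6.63 with LPS in the 12-array experiment. Their part in the Mgst3 change was not tested.

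Fpr2, a receptor for formyl peptides and lipoxin A4, showed the largest rise of the 38 genes. On the control diet of the 12-array experiment it read 6.83 and 6.22 unchallenged and 11.32, 11.41, 11.56 and 11.61 with LPS. The rise was 4.68 ± 0.63 on the control diet (limma, adjusted p = 8.12e-05), 4.42 ± 0.63 on the ABA diet (adjusted p = 0.000167) and 5.45 ± 0.80 in null mice (adjusted p = 0.00447). Every leave-one-out fit kept these calls, and the 16-array experiment alone gave 4.29 on the control diet, not called (adjusted p = 0.142). Neutrophils are known to carry Fpr2. Of 11 neutrophil markers, 2 rose on the control diet (10.6% of all genes) and 5 in null mice (3.95%), and their part was not tested. The leukotriene receptor genes Ltb4r1 and Cysltr1 stayed within 0.5 of the lowest value on all arrays.

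The genes most like each member were sought over the 12 group means, each taken less the mean of its experiment, among 12774 genes. For Ptger4 they were Aebp2 (r = 0.991), Naa25 (0.988) and Slco3a1 (0.986). For Ptgs2 they were Cdca7l (0.965), Il2ra (0.965) and Nsun5 (0.961), and for Alox5ap Il27ra (0.916), Ceacam1 (0.910) and Sqor (0.904). For Pla2g4a the nearest was Stx12 (0.934) and for Ptger2 Zfand3 (0.930). These describe 12 means that share arrays and the LPS contrast, with no test, and for the members that mostly repeat 1 value such likeness carries no information. Ptgs2 held the lowest value in every group without LPS, so within an experiment only its LPS groups vary.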

How the data were processed

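Total RNA of 28 spleen samples was hybridised to 1-colour arrays. The deposited tables hold log2 values of 45101 probe sets per array, and GCRMA and limma are named per the submitters' processing notes; versions, background settings and array batches are not given in the sources used here. The experiments have different lowest values and correlate at 0.942 or more within and 0.769 to 0.837 between them, so they appear to have been normalised separately. GCRMA sets dim probe sets to a common low value, which shrinks differences of dim genes. No 2 arrays held identical values.

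Platform annotation gave 1 gene to 34945 probe sets, several to 932 and none to 9224, of which 64 are controls. Each gene was read from its single-gene probe set of highest mean. Genes had to exceed the array's 40th percentile on at least 4 arrays (20 wild-type arrays, cell means of diet and LPS plus experiment, 15 residual degrees of freedom) or 2 arrays (16 arrays, 8 cell means, 8 residual degrees of freedom). Contrasts were tested with limma 3.58.1 in R 4.3.3 and Benjamini-Hochberg adjustment at 0.05, and the fit was tested on simulated data. Changes are fitted log2 differences ± SE, and overlap is judged within an experiment. Between groups of 2 arrays a lack of overlap is weak information, and it was not set against all genes.

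The members and gene lists were chosen with earlier results of these data known, and the comparison of experiments was chosen after seeing the data. Named genes are the members and other pathway genes that passed in a named contrast. For likeness, the 3 genes of highest correlation with each member were taken. Alternatives were quantile normalisation, median centring, no filter, the mean of probe sets, 1 fit of all arrays, each experiment alone, a replicate block, a term for Xist (high: above 5), no arrays with high Cpa1 (over 2 above the lowest value), and leaving out each array. Promoters are RefSeq's, with entries for 9 of the 10 members (not Alox5ap).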

Additional observations from a re-analysis of the deposited data

Results flagged for a closer look

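In 14 tests for a sample far from the others, made over groups of 4 arrays of the 12-array experiment (about 1 group in 20 is picked out by chance), 2 results stood apart. Ptges was at 2.43 on 1 ABA diet LPS array and at 2.36 on the other 3, so that the gap was the group's whole range (ratio 1). Since Ptges repeats 2.36 on 9 of 12 arrays there, any departure from tied values gives that ratio, and the test cannot decide for it. Ptger2 was at 4.12 on the second control diet LPS array and between 4.46 and 4.48 on the others (ratio 0.952, against a critical value of 0.829). That array is 1 of the 4 with high Cpa1, and the part of pancreas RNA in its Ptger2 value was not tested.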

How the results depend on the processing

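No called change turned its direction under the alternatives run. Of the values of single genes, 6517 kept their side of the threshold, 153 fell below it and 81 moved above it. The number of arrays limits the small contrasts, and dim probe sets (Alox5, Ltc4s, Ptges) mostly repeat 1 value. The 1 member called in the comparisons of null mice without high Cpa1 arrays is Ltc4s, which rests on 1 array. With LPS in wild-type mice on the control diet, 2437 genes became 1594 with a term for Xist and 404 within the 16-array experiment, where Ptger2 in place of Ptger4 was the 1 member called; the 1 member became 2 with 1 fit of 28 arrays, the mean of probe sets, quantile normalisation, the Xist term or no high Cpa1 arrays, and 3 within the 12-array experiment. On the ABA diet 2054 genes became 144 within the 16-array experiment, with 0 members, and the 1 member became 2 with median centring, the replicate block, the Xist term or no high Cpa1 arrays. Between diets with LPS, 2 genes became 79 (28 arrays), 4 (mean of probe sets), 0 (replicate block, Xist term), 13 and 9 (12-array and 16-array experiment alone); without LPS, 1 became 18 (28 arrays), 3 (mean), 0 (block), 62 (12-array) and 2 (no high Cpa1). The diet by LPS test went from 0 to 24 (28 arrays), 1 (mean), 37 (12-array), 1 (16-array) and 1 (no high Cpa1).

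In null mice LPS changed 2120 genes in place of 990 in the fit of 28 arrays, and 1 member in place of 0 there, with quantile normalisation and without high Cpa1 arrays. In wild-type mice of that experiment 1879 became 3073 (28 arrays), and 2 members became 1 with no filter. The genotype by LPS count went from 4 to 68 (28 arrays), 24 (no filter) and 166 (no high Cpa1, with 1 member). Null against wild-type with LPS went from 4 to 94 (28 arrays), 1 (median centring), 14 (no filter), 2 (quantile), 1 (block), 2 (Xist term) and 11 (no high Cpa1). Without LPS it went from 1 to 28 (28 arrays), 5 (mean), 18 (no filter) and 220 (no high Cpa1, with 1 member). Diet in null mice went from 0 to 41 (28 arrays), 1 (mean), 17 (no filter) and 144 (no high Cpa1, with 1 member). The cause of these shifts was not tested, beyond the fewer samples in the fits of 1 experiment.

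Leaving out 1 array gave 1825 to 2796 genes with LPS on the control diet and 1 to 3 members, 1369 to 2271 genes on the ABA diet and 1 to 2 members, 793 to 2339 genes in wild-type mice of the 16-array experiment and 1 to 2 members, and 572 to 1603 genes in null mice and 0 to 1 member. It gave 2 to 3 genes for diet with LPS, 0 to 6 without, 0 to 3 for diet by LPS, 1 to 133 for genotype by LPS, 1 to 79 for genotype with LPS, 1 to 190 without, and 0 to 145 for diet in null mice. In the last 4 of these the members ran from 0 to 1.

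Replicate numbers did not pair the arrays: same-numbered arrays deviated together with r of -0.153 to 0.344 over 6 pairs of groups in the 12-array experiment (over 0.1 in 3) and -0.698 to 0.512 over 28 pairs in the other (over 0.1 in 10). With the replicate block the ABA diet change of Ptger2 with LPS was 0.71 (adjusted p = 0.0463).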
